A study of Mus musculus with 7 samples.

Results

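The replication-dependent histone genes were taken as every protein-coding gene of the GENCODE annotation of mouse genome build GRCm38 whose symbol begins with Hist1h, Hist2h, Hist3h or Hist4h. This rule gave 67 genes of 21938, namely 6 for the linker histone H1, 18 for H2A, 18 for H2B, 12 for H3 and 13 for H4. The study made cell clones from 3 independent skin tumours of mice on an FVB/129P2 backcross, homozygous for a mutant Cdkn2ab locus that lacks p15Ink4b, p16Ink4a and p19Arf, and selected them in soft agar. Chromatin immunoprecipitation followed by sequencing (ChIP-seq) with an antibody to acetylated lysine 27 of histone H3 (H3K27ac), a mark of active promoters and enhancers, gave 1 list of enriched regions (peaks) for each clone. Clones 1 and 2 rest on 1 H3K27ac library each and clone 3 on 2 libraries that the authors pooled, and IgG control libraries are labelled for clones 1 and 3. All 3 clones share the Cdkn2ab genotype, while their mix of FVB and 129P2 alleles may differ, and no untreated or wild-type group was analysed here, so the genes were compared with each other and with all protein-coding genes of the same clone. Each clone stands for 1 tumour and was counted once.

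Replication-dependent histone genes supply the bulk histones that package newly made DNA, and their transcription rises in S phase. Most lack introns, and their messages typically end in a conserved stem-loop in place of a poly(A) tail. The genes lie in clusters, the largest with the Hist1 genes and smaller ones with the Hist2, Hist3 and Hist4 genes, where H2A and H2B genes are often arranged head to head around a shared promoter. Within nuclei the large cluster gathers at histone locus bodies, which hold NPAT, the coactivator of these genes, and the factors that process their messages.

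The peak lists held 29182, 49587 and 29277 peaks on the chromosomes used for clones 1, 2 and 3, and the median peak rested on 37, 34 and 53 reads where its signal was highest (the summit), with no peak below 13, 12 and 25 reads. These read numbers, and the background expected at each summit, were solved from the deposited fold enrichment and p-value of each peak. The background is in scaled units, of which 1 ChIP read is worth 0.424, 0.428 and 0.308 in clones 1, 2 and 3, and the fold is the scaled reads plus 1 over the background plus 1. Fold enrichment was on a different scale in each list, with a median over the strongest promoter peaks of all genes of 18.8, 39.3 and 8.30, so a gene's fold was read as a percentile within its own list. The state of the cell cycle is not given in the sources used here, and the values average over the cells of a culture. With 3 clones an exact sign-flip permutation test cannot give a two-sided p below 0.25, so no test was made, and differences are set beside their SD over clones.

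Nearly every member carried H3K27ac at its promoter. A peak touched the window within 1 kb of a transcript start at 61 (91.0%), 65 (97.0%) and 61 (91.0%) of the 67 members in clones 1, 2 and 3, on average 93.0% ± 3.45 (SD, n = 3 clones). The same held for 49.8%, 56.9% and 48.1% of all protein-coding genes. In all 3 clones at once, 61 members (91.0%) had a promoter peak, against 46.5% of all genes. All 12 H3 genes and all 13 H4 genes, the core histones that form the central tetramer of the nucleosome, had one in every clone. So did 17 of 18 H2A genes and 16 of 18 H2B genes. The linker class stood lowest, with 3 of 6 H1 genes in every clone. Hist1h1d, counted here as without a peak, had one over its RefSeq start in all 3 clones. With only peaks over the start base itself the members were closer to the other genes, at 50, 60 and 32 members (74.6%, 89.6% and 47.8%) in clones 1, 2 and 3 against 45.3%, 54.2% and 41% of all genes. In all 3 clones at once this left 30 members (44.8%), against 39.1% of all genes.

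**Figure D1:**
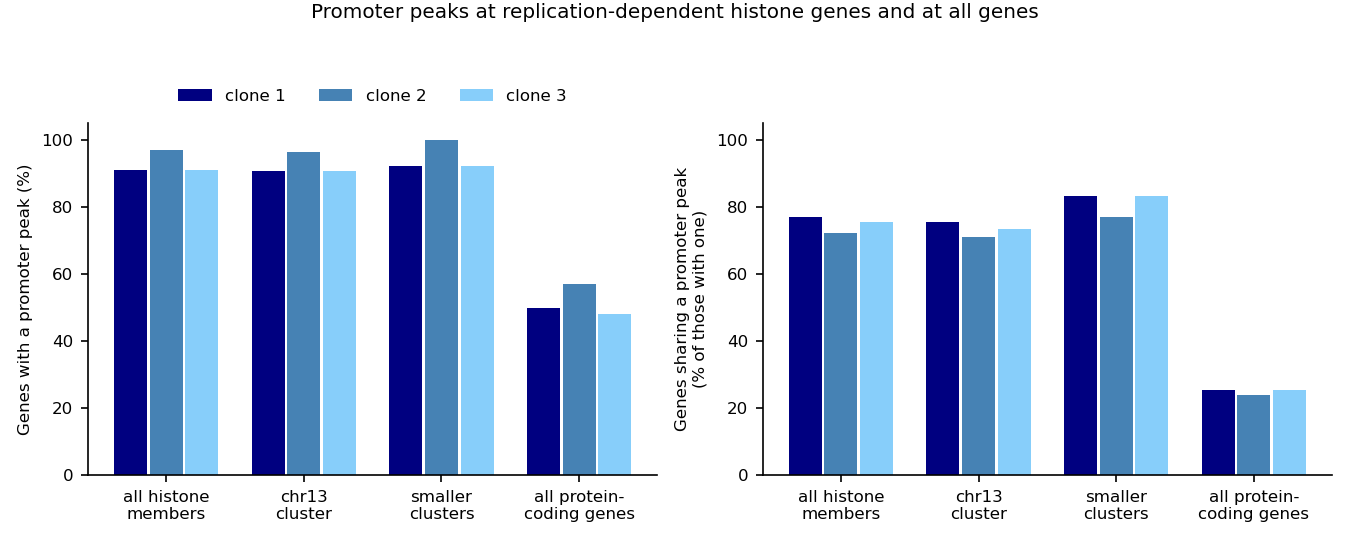
Left, share of genes with a peak within 1 kb of a start; right, share of genes with a promoter peak whose peak also touched the promoter window of another gene; bars are clones 1 to 3 for all members, the chr13 cluster, the smaller clusters and all protein-coding genes. In each clone over 90% of the histone genes had a promoter peak, against 48.1% to 56.9% of all protein-coding genes.

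A total of 6 members lacked a promoter peak in at least 1 clone. Hist1h1t (ENSMUSG00000036211.4, start at base 23695814 of chr13, plus strand), which encodes the linker histone of spermatocytes, had none in any clone. The nearest peaks lay 1.89, 2.12 and 2.00 kb away in clones 1, 2 and 3 and belonged to the H4 gene Hist1h4c downstream of it. Hist1h2ba and Hist1h2aa, a head-to-head pair for the testis forms of H2B and H2A, shared 1 peak of 14.5-fold and 59 reads in clone 2, at percentile 16.2 of that list. In clones 1 and 3 the nearest peak to the start of Hist1h2aa lay 161 and 83.2 kb away. None of the 3 germline genes thus had a promoter peak in clones 1 and 3. Hist1h1a, another H1 gene, had a peak of 12.3-fold (113 reads) in clone 2 only. Hist3h2ba, the H2B gene of the chr11 cluster, had a peak of 5.24-fold in clone 2 only, with 19 reads at its summit. All 4 of these calls came from clone 2, the list with the most peaks.

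Hist1h1d (ENSMUSG00000052565.7) also had no promoter peak in any clone, but its annotated start decides that. The only GENCODE start lies at base 23553262 of chr13, and the RefSeq gene, there named H1f3, starts 1770 bp downstream at base 23555032. A peak covered the RefSeq start in all 3 clones, at 19.1-fold, 40.5-fold and 8.72-fold, which are percentiles 51.1, 51.9 and 54.0. With RefSeq starts for all members, 62 had a promoter peak in every clone. Hist1h2be, an H2B gene, was the other member with a RefSeq start more than 500 bp from any GENCODE start. Both annotations start it near the H1 gene Hist1h1e, with which it shared its strongest peak. In clone 1 the summit lay 94 bp inside Hist1h2be and 1574 bp inside Hist1h1e, and in clones 2 and 3 it was closer to the start of Hist1h1e. A further RefSeq start 35.1 kb away had its own peak of 24.4-fold, 46.3-fold and 8.04-fold.

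**Figure D2:**
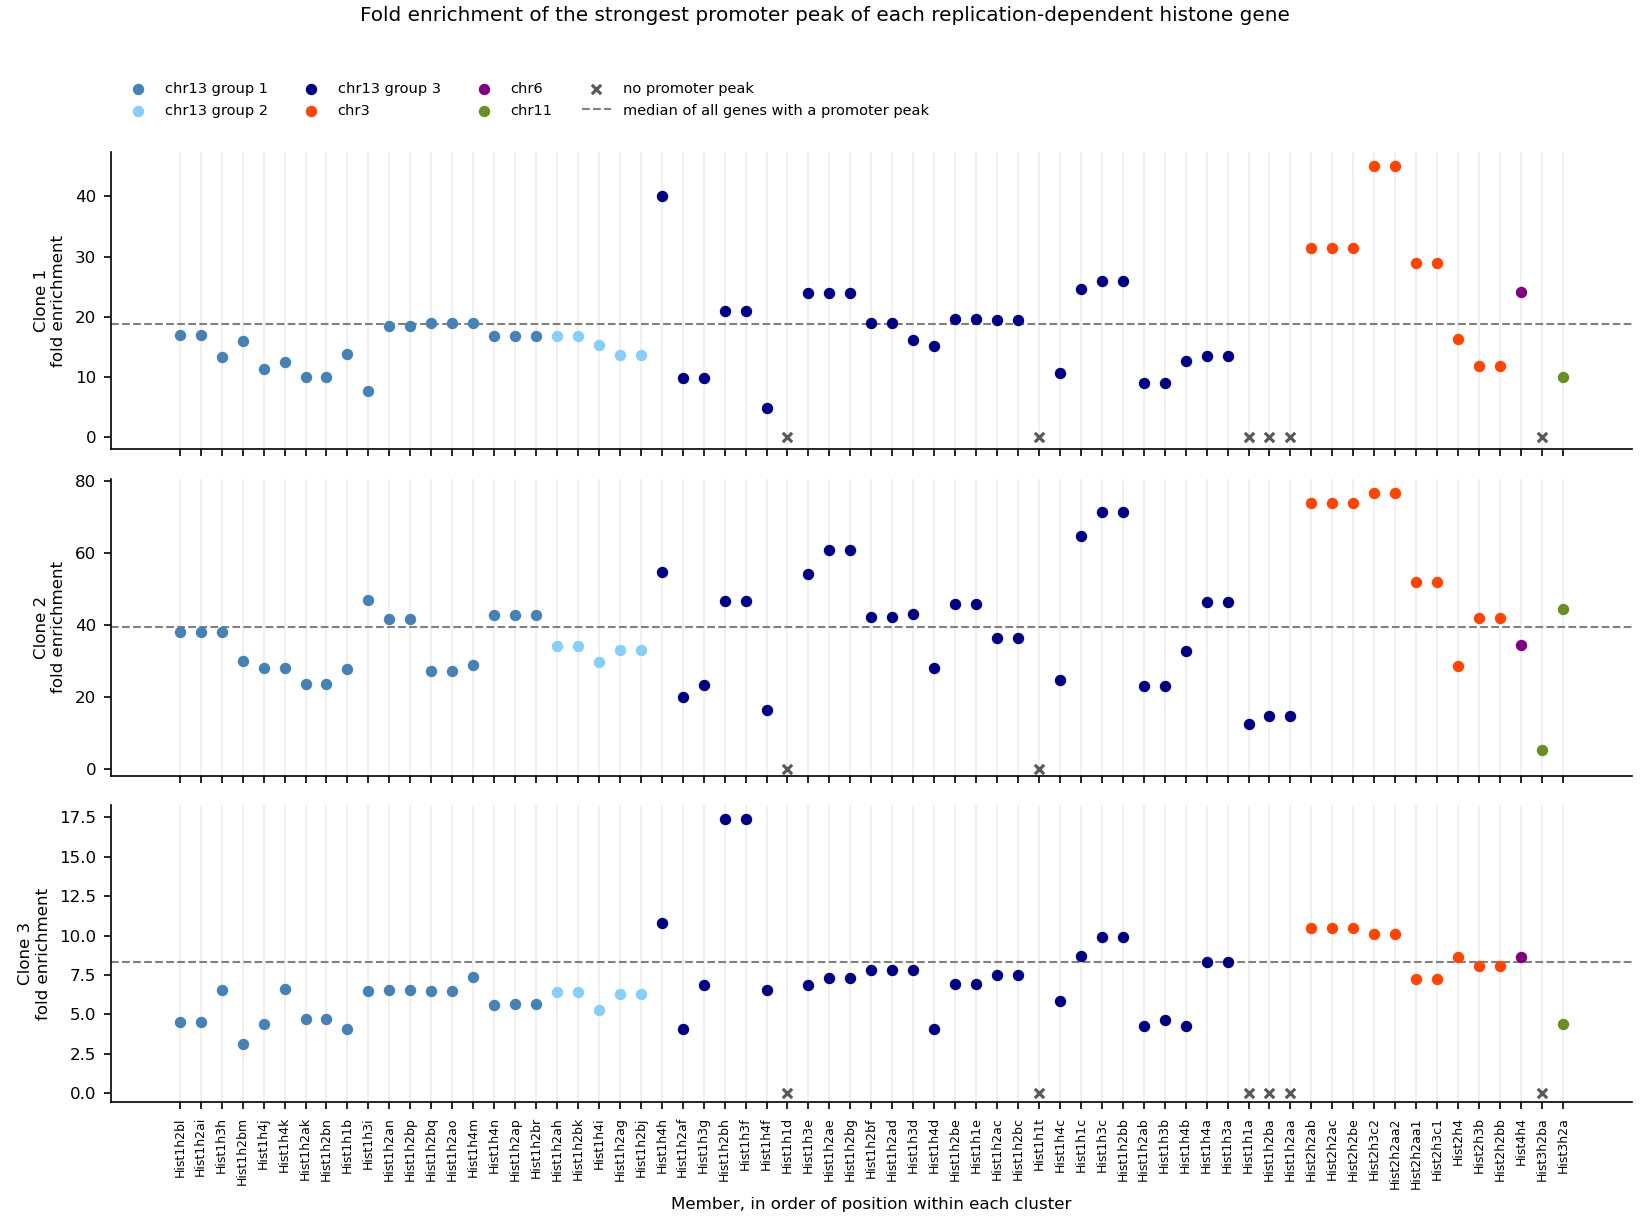
Fold enrichment (linear axis) of the strongest promoter peak of each of the 67 members in clones 1 to 3, in order of position within each cluster, with crosses on the zero line for members without a promoter peak and a dashed line at the median of all genes with one (18.8, 39.3 and 8.30). Neighbours at the same height share a peak, and Hist2h2ab, Hist2h2ac, Hist2h2be, Hist2h3c2 and Hist2h2aa2 of chr3 stand above the line in every clone, as do Hist1h4h, Hist1h2bh, Hist1h3f, Hist1h1c, Hist1h3c and Hist1h2bb of chr13 group 3.

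The promoters of a linker histone gene with a peak in every clone and of one without are shown to compare the positions of 2 motifs. Hist1h1c, which encodes a widely expressed H1, had the highest mean percentile of the H1 genes, with 24.6-fold, 64.7-fold and 8.70-fold in clones 1, 2 and 3. Its promoter (chr13:23738557-23738856, plus strand, GRCm38.p6) and that of Hist1h1t (chr13:23695561-23695860, plus strand) are given from RefSeq and cover 300 bases that end shortly after the start, with capitals for the H1 box AAACACA and the CCAAT box.
Hist1h1c: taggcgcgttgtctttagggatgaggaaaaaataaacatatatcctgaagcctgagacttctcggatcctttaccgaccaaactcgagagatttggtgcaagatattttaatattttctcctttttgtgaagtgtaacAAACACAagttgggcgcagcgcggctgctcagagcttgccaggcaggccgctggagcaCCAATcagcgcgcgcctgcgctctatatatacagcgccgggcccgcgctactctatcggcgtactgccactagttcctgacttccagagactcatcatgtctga
Hist1h1t: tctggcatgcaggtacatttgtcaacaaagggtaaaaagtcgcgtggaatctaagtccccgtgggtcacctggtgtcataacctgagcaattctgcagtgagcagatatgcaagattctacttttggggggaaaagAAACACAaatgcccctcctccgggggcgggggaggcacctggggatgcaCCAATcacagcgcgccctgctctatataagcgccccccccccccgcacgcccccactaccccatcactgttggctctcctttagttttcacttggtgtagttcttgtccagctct
Counted from the start, the H1 box began at -112 in Hist1h1c and -114 in Hist1h1t, and the CCAAT box at -54 and -65. Both promoters thus held the same pair of motifs, which were in 5 of 6 and 6 of 6 H1 promoters, and a peak lay at Hist1h1c alone.

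Although nearly all members were marked, their promoter peaks were of middling height. The median member with a promoter peak stood at percentile 43.3, 48.1 and 34.8 of all genes with one in clones 1, 2 and 3, on average 42.1 ± 6.74 (SD, n = 3 clones), where all genes have a median of 50 by construction. The median fold was 16.8, 38.0 and 6.84, and the median read number at the summit 78, 183 and 63, against 97, 213 and 82 over all genes. Above percentile 90 stood 3 of 61, 5 of 65 and 2 of 61 members, and below percentile 25 stood 11, 6 and 18. Over all genes with a promoter peak, 1096 of 10930, 1255 of 12480 and 1058 of 10557 stood above percentile 90. Below percentile 25 stood 2732, 3120 and 2641 of them, so low members were fewer than that share in clones 1 and 2 and more in clone 3. Of the classes, H4 was the lowest on average, at 34.9 ± 3.04, and the other 4 lay between 43.6 and 46.5. By clone it was the lowest only in clone 2. H3 stood lower in clone 1, at 36.7 against 37.9, and H2A in clone 3, at 30.9 against 31.9. Ranked by width the members stood at percentile 62.7 on average, and among all peaks of the list, promoter or not, their fold stood at 77.5. Counting each peak once, over 39, 42 and 41 distinct peaks, the medians were 41.3, 42.5 and 31.8. Their order was shared in part between the clones, with a Spearman rho of 0.71 for clones 1 and 2, 0.63 for clones 1 and 3 and 0.63 for clones 2 and 3 over 42 distinct values, beside 0.82, 0.66 and 0.60 over the 10209 genes with a promoter peak in every clone.

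The highest mean percentile was that of Hist2h3c2 and Hist2h2aa2, an H3 and an H2A gene of chr3 under 1 peak, with 45.1-fold, 76.7-fold and 10.1-fold in clones 1, 2 and 3 (percentiles 95.0, 91.9 and 66.1). Hist2h2ab, Hist2h2ac and Hist2h2be followed, also under 1 peak of chr3, with 31.4-fold, 73.9-fold and 10.5-fold (percentiles 80.3, 90 and 69.1). Both peaks stood at percentile 66.1 or higher in each clone. On chr13 the highest was the H4 gene Hist1h4h, with 40.0-fold, 54.7-fold and 10.8-fold (percentiles 91.1, 71.6 and 70.7). Next came Hist1h3c and Hist1h2bb, whose shared peak reached 25.9-fold, 71.4-fold and 9.89-fold (percentiles 69.5, 88.2 and 64.3).

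The lowest mean percentiles were those of Hist1h2af, Hist1h2ab, Hist1h4f, Hist1h3b and Hist1h2bn, between 15.7 and 19.5, where Hist1h2ak was tied with Hist1h2bn through a shared peak. Hist1h2ab and Hist1h3b also had the same strongest peak in clones 1 and 2, which covered the start of Hist1h2ab only. Hist1h2af, an H2A gene, had 9.79-fold, 19.9-fold and 4.09-fold in clones 1, 2 and 3, at percentiles 19.4, 22.8 and 5.08. Hist1h4f had 4.94-fold, 16.4-fold and 6.55-fold, at percentiles 2.72, 18.5 and 31.9. Its order in the clones was the reverse of that of Hist1h4h, although both encode H4 and lie in the same group of genes. The background expected at its summit was 4.00 and 3.00 units in clones 1 and 2, against 1.00 for the median peak of each list, and the part of this background in its low fold was not tested. Hist1h2bh and Hist1h3f were the members that differed most in favour of clone 3, where their shared peak reached 17.4-fold (percentile 95.3), against percentiles 56.6 and 61.1 in clones 1 and 2.

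The large Hist1 cluster on chr13 was then compared with the smaller clusters on chr3, chr6 and chr11. It held 54 members in 3 groups separated by more than 200 kb, with 18 members in group 1 (chr13:21716143-21833743), 5 in group 2 (chr13:22035568-22043214) and 31 in group 3 (chr13:23531050-23934462). The smaller clusters held 13 members, 10 on chr3 (chr3:96219865-96269752), 2 on chr11 and 1 on chr6. A promoter peak was present at 90.7%, 96.3% and 90.7% of the chr13 members and at 92.3%, 100% and 92.3% of the others, a difference of -2.28 ± 1.23 percentage points (SD, n = 3 clones). This amounts to less than 1 gene of the smaller clusters. It turned to 1.86 points without the germline genes, all of which lie on chr13, so the clusters were not told apart by presence.

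In height the chr13 members stood lower as a group. The median percentile was 43.3, 45.7 and 31.7 for chr13 and 75.7, 67.9 and 53.0 for the smaller clusters, a difference of -25.3 ± 6.18 percentile points (SD, n = 3 clones), with chr13 lower in 3 of 3 clones. The pooled value of the smaller clusters rests on chr3, which holds 10 of their 13 members. On chr11 the median was 20.6, 30.5 and 8.16, below chr13 in every clone, but it rests on 1, 2 and 1 genes with a promoter peak. In clones 1 and 3 this was Hist3h2a alone. In clone 2 Hist3h2a stood at 57.8 and Hist3h2ba at 3.30. The chr6 gene stood below chr13 in clone 2, at 42.8 against 45.7. Among all peaks of the list in place of promoter peaks the difference was -11.4 points. Each core histone class showed the same direction, with mean percentiles for chr13 and the smaller clusters of 38.5 ± 7.86 and 78.8 ± 12.0 for H2A, 43.0 ± 10.1 and 55.4 ± 2.80 for H2B, 42.5 ± 15.6 and 63.9 ± 14.2 for H3, and 30.4 ± 5.48 and 48.3 ± 8.37 for H4 (SD, n = 3 clones). The smaller clusters held only 5, 3, 3 and 2 genes of H2A, H2B, H3 and H4. Shared peaks of chr3 also count for genes of different classes, so the classes are not independent comparisons. Counting each peak once, chr13 stood at 39.7, 40.5 and 31.2 over 32, 34 and 34 peaks and the smaller clusters at 64.8, 55.9 and 52.9 over 7, 8 and 7 peaks. The ranges overlapped, with chr13 members between percentiles 2.72 and 91.1 in clone 1 and the others between 20.6 and 95.0. Within chr13 the medians were 43.3, 42.3 and 22.0 for group 1, 38.7, 40.7 and 28.7 for group 2, and 51.1, 54.6 and 40.8 for group 3. Groups 1 and 2 had a peak at each of their 23 members in every clone but none above percentile 61.4, while group 3 held the 5 chr13 members without a full set of peaks as well as the highest.

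**Figure D3:**
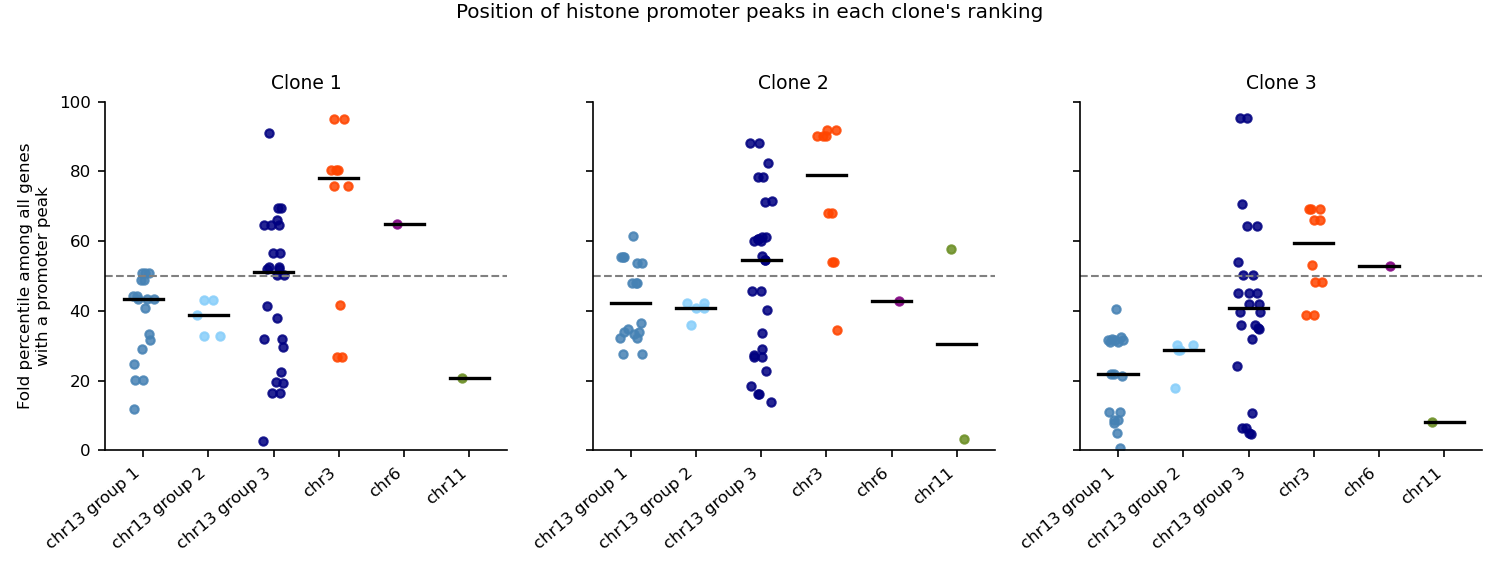
Fold percentile of the strongest promoter peak of each member (points) and the group median (bars), by cluster and by group of chr13, for clones 1 to 3; the dashed line marks percentile 50. The chr3 medians were 78.0, 79.0 and 59.5, above all 3 groups of chr13 in each clone.

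The chr3 cluster spans 49.9 kb and its 10 members lay under 5 strongest peaks in each clone. Apart from the pairs above, Hist2h2aa1 and Hist2h3c1 shared a peak of 28.9-fold, 51.8-fold and 7.22-fold in clones 1, 2 and 3 (percentiles 75.7, 67.9 and 38.8). Hist2h3b and Hist2h2bb shared a peak of 11.9-fold, 41.8-fold and 8.05-fold (percentiles 26.7, 54.1 and 48.1). Hist2h4, the H4 gene of the cluster, had a peak to itself of 16.3-fold, 28.4-fold and 8.63-fold (percentiles 41.6, 34.4 and 53.0). Each of these 3 peaks fell below percentile 50 in at least 1 clone, so the cluster was not uniformly high. Peaks covered 26.5%, 24.4% and 24.2% of the cluster, and 8 of 9, 6 of 7 and 10 of 12 peaks were at a member's promoter.

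**Figure D4:**
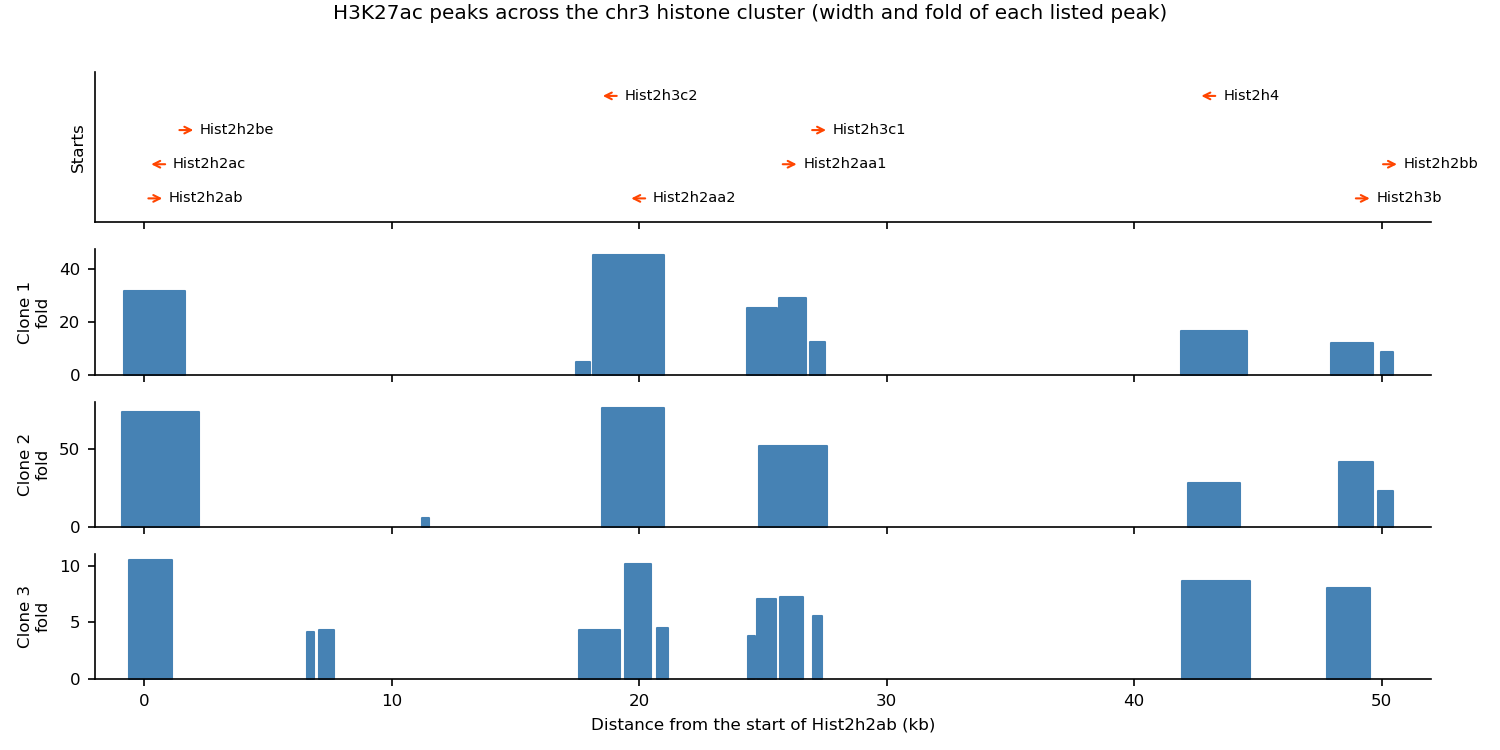
Peaks of clones 1 to 3 across the chr3 cluster, drawn by width and fold enrichment against the distance in kb from the start of Hist2h2ab, with arrows for the start and direction of each member in the top row. Peaks stand at every gene or pair of neighbouring genes, and the peaks around Hist2h3c2 and Hist2h2aa2 are more broken in clone 3 than in clone 2.

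Hist4h4, the H4 gene that stands alone on chr6 (start at base 136804415, minus strand), had 24.1-fold, 34.4-fold and 8.62-fold in clones 1, 2 and 3 (percentiles 64.8, 42.8 and 52.9). By reads at the summit it was the highest of all members in clones 1 and 2, with 225 and 399 reads, and reached 141 in clone 3. These are percentiles 95.8, 95.4 and 88.1 of all genes with a promoter peak. Its expected background of 3.00, 4.00 and 4.16 units was above the median peak's 1.00, 1.00 and 2.00, and fold and reads ranked this gene differently. On chr11 the H2A gene Hist3h2a had 10.1-fold, 44.4-fold and 4.41-fold (percentiles 20.6, 57.8 and 8.16). Its peak also touched the promoter window of Trim17, a gene of the tripartite motif family that starts within the span of this cluster. The signal could thus not be assigned to either gene.

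Most members with a promoter peak shared one with another gene. Of the members with a promoter peak, 47 of 61 (77.0%), 47 of 65 (72.3%) and 46 of 61 (75.4%) in clones 1, 2 and 3 had one that also touched the promoter window of another protein-coding gene. Over all genes with a promoter peak this share was 25.5%, 23.7% and 25.2%. The partner was another histone gene for 46, 46 and 45 of them, on average 73.3% ± 2.35 of members (SD, n = 3 clones). The share follows from the spacing of the genes as well as from the peaks, since windows of 1 kb overlap where starts are close. It was 32.9% ± 18.4 (SD, n = 3 clones) when a peak had to cover the start base of each gene. The clones differed, with 19 of 50, 29 of 60 and 4 of 32 members in clones 1, 2 and 3. The same strict share was not taken over all genes, so it has no background beside it. H2A and H2B genes shared most often, at 94.1% and 93.8% of those with a peak in clone 1, and H4 genes least, at 30.8%, 23.1% and 23.1% in clones 1, 2 and 3.

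The number of peaks that touched 2 or more member windows was 26, 22 and 30 in clones 1, 2 and 3, and none touched more than 3. Fewer spanned several genes in the strict sense of covering 2 or more start bases, with 9 peaks over 19 members in clone 1, 14 over 29 in clone 2 and 2 over 4 in clone 3. The peak over Hist2h2ab, Hist2h2ac and Hist2h2be covered 3 starts in clones 1 and 2 and 2 starts in clone 3. The widest shared peak, 3570 bp over Hist1h2ac and Hist1h2bc, was in clone 1. In clone 3 the signal was split, and 57.4% of members with a promoter peak had 2 or more, against 26.4% of all genes, while in clones 1 and 2 the shares were 41.0% against 24.5% and 20.0% against 25.2%. A promoter peak lay over the start base itself at 82.0%, 92.3% and 52.5% of these members, against 91.0%, 95.2% and 85.3% of all genes with a promoter peak.

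There were 12 head-to-head pairs with starts within 500 bp, all of 1 H2A and 1 H2B gene, with 176 to 306 bp from start to start. In every clone where a pair had a peak, the same peak was the strongest for both genes. A peak covered both starts in 5 of 11 pairs in clone 1, 10 of 12 in clone 2 and 1 of 11 in clone 3. In no pair and no clone did the summit of the strongest peak fall between the starts. It lay on the H2A side in 7, 8 and 9 pairs and on the H2B side in 4, 4 and 2. Hist1h2ae and Hist1h2bg were the pair with the closest starts, and their peak reached 24.0-fold, 60.7-fold and 7.32-fold (percentiles 64.6, 78.4 and 39.7). The RefSeq promoter of Hist1h2bg (chr13:23571150-23571449, plus strand, GRCm38.p6) spans the 176 bp between both starts and is shown to give the layout of such a shared promoter, with capitals for the octamer ATGCAAAT, the CCAAT box and TATAAA on either strand.
Hist1h2bg: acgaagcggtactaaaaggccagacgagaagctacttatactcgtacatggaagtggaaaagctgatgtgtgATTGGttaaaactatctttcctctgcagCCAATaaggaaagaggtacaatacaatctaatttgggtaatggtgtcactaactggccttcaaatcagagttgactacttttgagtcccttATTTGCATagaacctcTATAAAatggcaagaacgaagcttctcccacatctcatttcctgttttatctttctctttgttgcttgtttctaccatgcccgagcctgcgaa
The octamer, on the minus strand, began at -59 from the Hist1h2bg start and TATAAA at -43, while the CCAAT boxes at -178 and -150 pointed in opposite directions.

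The position of the summit differed between the histone classes. For H1 genes the summit lay a median of 1513, 301 and 847 bp downstream of the start in clones 1, 2 and 3, on only 3, 4 and 3 genes. In clones 1 and 3 the median gene was Hist1h1b, whose summit lay past the end of the gene. For H4 genes it lay a median of 166, 203 and 266 bp inside the gene in clones 1, 2 and 3, and for H2A genes 107, 165 and 218 bp. For H2B genes it lay at -372, -399.5 and -485 bp, upstream of the start and on the side of the H2A partner in most pairs. H3 genes were divided, with 50.0%, 50.0% and 41.7% of summits upstream. Over all genes with a promoter peak the median was 134, 124 and 135 bp inside the gene, and 27.3%, 27.3% and 31.0% of summits lay upstream, against 39.3%, 38.5% and 39.3% for the members. Because a shared peak has 1 summit, the positions of paired genes are not independent of each other.

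**Figure D5:**
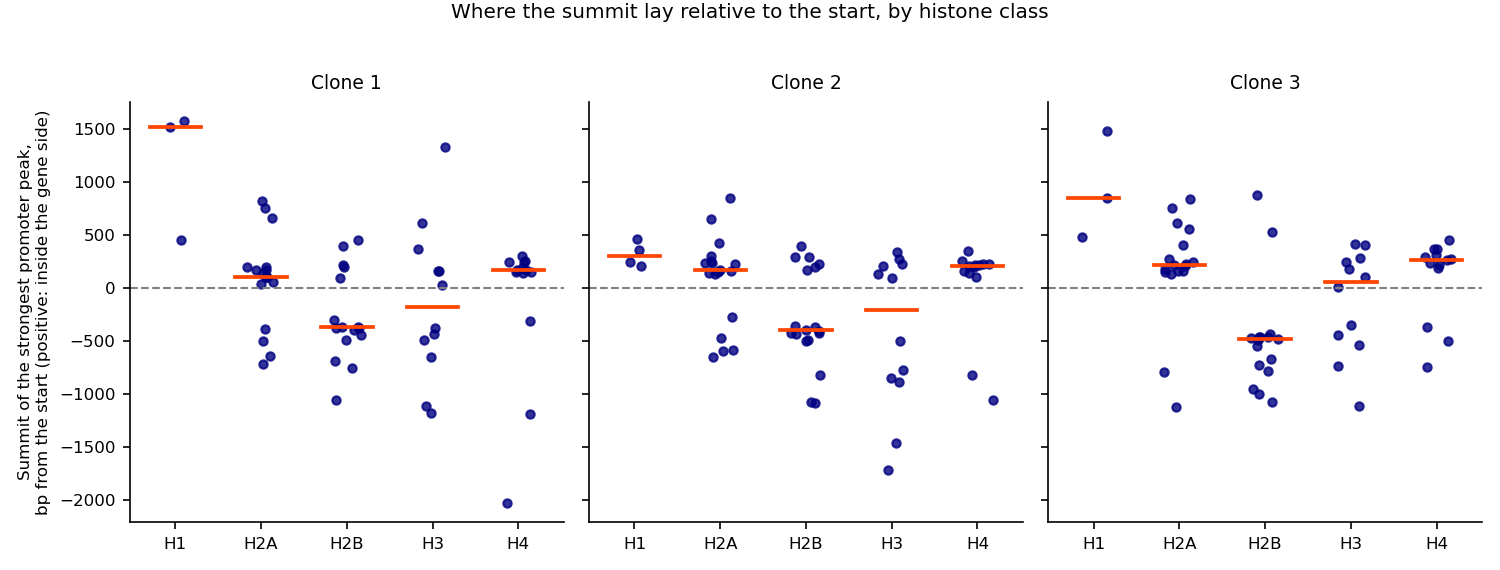
Distance in bp from the transcript start to the summit of the strongest promoter peak, positive in the direction of transcription, by histone class in clones 1 to 3; points are members and bars are medians. H4 and H2A medians lay above 0 and H2B medians below 0 in every clone.

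Promoter sequences of 300 bases were at hand for 62 of the 67 members, all but Hist1h3f, Hist1h2bc, Hist1h3a, Hist2h2be and Hist2h4. Motifs were searched on both strands, and each share is set beside that of 32851 RefSeq promoters of the same length. CCAAT was in 53 member promoters (85.5%, against 37.4% of all), in every one of the H1, H2A, H2B and H3 genes but in 3 of 12 H4 genes. TATAAA was in 35 (56.5%, against 13.6%). The octamer ATGCAAAT, the site of Oct factors, was in 13 (21%, against 1.74%), all of them H2A or H2B genes. TTTNNCGC, a form of the E2F site, was in 19 (30.6%, against 5.17%), of which 16 were H2A or H2B genes. The H1 box AAACACA was in 9 (14.5%, against 7.18%), with 5 of 6 H1 promoters among them. Each motif was counted on its own, whether or not its matches overlapped those of another, and shared head-to-head promoters count for both genes. A match is a description of the letters and not evidence of binding.

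Histone genes exist in near-identical copies, which bears on each value above, since reads of 65 bases that fit several places cannot be assigned to one. The share of 65-base stretches that occur more than once on the chromosomes used was a median of 17.3% within 1 kb of the members' starts and 40.3% within the genes. It was 100% around Hist1h2bq, Hist1h2ao, Hist1h2ap and Hist1h2br of chr13 group 1, 88.7% around Hist1h4n and 90.6% around Hist1h4m, so the peaks of these 6 genes cannot be attributed to one copy. On chr3 it was 75.8% around Hist2h3c2, 55.3% around Hist2h2aa2, 52.5% around Hist2h2aa1 and 76.8% around Hist2h3c1, which includes the highest peak of all members. It was 8.78% around Hist2h2ab and Hist2h2ac, 9.81% around Hist1h4h and 0% around Hist1h1t and Hist1h1a. The 4 members at 100% had mean fold percentiles of 38.0 to 40.3, near the members' median, and the part of multiple copies in any single value was not tested.

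Genes that supply and handle these histones were described beside the members. A list of 24 such genes had a promoter peak in every clone at 23 (95.8%, against 46.5% of all genes). Their median percentile was 54.2, 53.0 and 53.7, on average 53.6 ± 0.585 (SD, n = 3 clones), beside the members' 42.1, a difference that was not tested. A peak covered the start base at 95.8%, 100% and 87.0% of those with a promoter peak, against 91.0%, 95.2% and 85.3% over all genes. Of the same genes 37.5%, 41.7% and 34.8% shared their peak with another gene, against 25.5%, 23.7% and 25.2%. Npat, the coactivator, stood at percentiles 60.6, 50.6 and 31.3 in clones 1, 2 and 3. Slbp, which encodes the protein that binds the stem-loop of histone messages, stood at 35.2, 52.6 and 94.2. Srrt, a partner of the cap-binding complex, stood at 86.7, 93.5 and 78.5, and Ccne1, the cyclin that activates CDK2 before S phase, at 25.0, 18.5 and 2.61. The exception was Asf1b, a histone chaperone, with no promoter peak in clone 3.

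Of 11 genes for replication-independent histone variants, which are not tied to DNA replication in the way the bulk histones are, 10 had a promoter peak in every clone (90.9%, against 46.5% of all genes). Cenpa, the centromeric H3, had one in clones 1 and 2. The median percentiles of the variant genes were 42.1, 43.1 and 66.1. H1f0 was highest at 86.2, 95.5 and 97.1, and H2afz, which encodes H2A.Z, stood at 78.2, 61.7 and 73.0. Of the 7 other protein-coding genes that start within the histone clusters, 2 had a promoter peak in every clone, too few to set apart from the 46.5% of all genes. These were Hfe and Trim17, and Trim38 and the transporter genes Slc17a1, Slc17a2, Slc17a3 and Slc17a4, which lie among the members of chr13 group 3, had none in any clone.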

How the data were processed

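H3K27ac ChIP-seq of 3 tumour cell clones gave 1 narrowPeak list per clone. The authors aligned single-end reads of 65 bases with Bowtie2 and called peaks with MACS2 2.1.1, per the submitters' processing notes, and clone 3's 2 libraries were pooled. Which control served clone 2 is not given in the sources used here. The deposited columns used were the fold enrichment at the summit, a linear ratio to the expected background, and the −log10 p-value and −log10 q-value of each peak. No read counts per gene were used, and the authors' threshold on the q-value sets the lowest peaks (−log10 q of 1.30, 1.33 and 1.35).

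From these, the ChIP reads and expected background of each peak were solved from fold and p with the Poisson model of the peak caller, which gave 1 solution in whole reads for 100% of peaks, where the listed −log10 p was met within 0.0003 and the background lay within 0.00015 of a value the caller can give, each plus 2e-05 of its value. They cover counting error only and are not molecules. Genes and transcript starts came from GENCODE release M21 on GRCm38, in coordinates counted from 1. A promoter peak was a peak that touched, by at least 1 bp, the window of 1 kb on each side of any transcript start, and the strongest one by fold represented the gene. Its percentile was taken among all protein-coding genes with a promoter peak in the same list. Groups of chr13 were split where neighbouring members lay over 200 kb apart, and head-to-head pairs had starts within 500 bp. Named members were those without a promoter peak in at least 1 clone, the 8 highest and 5 lowest by mean percentile among those with one in every clone, all members of the chr3, chr6 and chr11 clusters, and the germline genes Hist1h1t, Hist1h2aa and Hist1h2ba. Other members were named for shared peaks, repeats or starts after their values were seen. Promoter sequences came from RefSeq (GRCm38.p6). The members and lists were chosen with earlier results of these data known. Scripts were tested on simulated data and ran under Python 3.11.15 (scipy 1.17.1 for the Poisson model, pandas 2.3.3 and numpy 2.4.6 for tables, matplotlib 3.10.9 for figures). Alternatives varied the window, the start, the peak threshold, the number of peaks, the ranking and the clones.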

Additional observations from a re-analysis of the deposited data

How the results depend on the processing

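The 61 members with a promoter peak in all 3 clones became 30 (44.8%, against 39.1% of all genes) when only peaks over the start base counted, and lay between 53 and 63 under the other settings, with 61 to 61 when each clone was left out in turn. The median fold percentile of 42.1 moved to 62.7 when peaks were ranked by width and to 77.5 among all peaks of the list, and lay between 39.0 and 45.7 when each clone was left out. The difference in presence between chr13 and the smaller clusters, -2.28 percentage points, turned to 1.76 with peaks over the start base, 2.04 with a window of 2 kb, 0.285 with the same number of peaks in each clone and 1.86 without the germline genes. It was -4.65 with peaks of −log10 q of at least 5 and -0.427 with RefSeq starts, an alternative chosen after seeing the data, and between -2.64 and -1.57 when each clone was left out. The share of members whose peak touched another member, 73.3%, became 32.9% with peaks over the start base, 83.0% with 2 kb and 69.1% with 500 bp, and lay between 72.3% and 74.6% when each clone was left out. The difference in fold percentile, -25.3, was -11.4 among all peaks of the list, kept its direction under every setting run, and lay between -27.3 and -21.7 when each clone was left out. Apart from settings that change what is counted by construction, such as the window, the cause was not tested. Differences between clusters were taken within each clone. The 3 lists differ in depth and scale, peaks under the threshold are not listed, and a gene without a peak is one without a call at this depth. Reads from near-identical copies cannot be told apart.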
